A study of Mus musculus with 8 samples.

Results

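Imprinted genes are expressed mainly from the copy inherited from 1 parent. Of a list of 40 imprinted mouse genes, matched by gene symbol to the rows of each RNA-seq table, all 40 had a row, and 31 reached 1 RPKM (reads scaled by transcript length and library size) in at least 2 of the 8 libraries and were tested. The 40 genes are among 24505 rows per library, of which 13428 were tested. By textbook knowledge of the expressed copy, 16 of the 40 are maternally expressed, 23 are paternally expressed, and Gnas depends on the transcript; 12, 18 and 1 of these were tested. The list holds 9 imprinted clusters of at least 2 listed genes, with 30 genes in all, and 10 genes that stand alone in their region.

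Imprinting rests on DNA methylation that is laid down differently in egg and sperm at imprinting control regions, and that the embryo keeps when the rest of the genome is demethylated. The zinc finger protein ZFP57 binds a methylated hexamer in these regions and, with TRIM28, protects them. Many imprinted genes act on growth, placenta and brain: those expressed from the paternal copy, such as Igf2, often favour growth, and those expressed from the maternal copy, such as H19, Grb10, Cdkn1c and Igf2r, often restrain it. Mouse embryonic stem cells express many imprinted genes, and their imprints are known to be unstable in culture. The libraries measured RNA from both copies together, so the values below give the level of a gene and not the parental copy it came from.

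The cells were mouse embryonic stem cells of the line INO80 CKO, in which the gene of the INO80 chromatin remodelling ATPase can be deleted. Per the labels' protocols, the gene was deleted by giving 100 nM 4-OHT for 2 days and the cells were used 2 days later; the sources used here do not say whether wild-type cells received 4-OHT. Naive cells were grown in 2iL medium, which holds N2B27, the MEK inhibitor PD0325901, the GSK3 inhibitor CHIR99021 and LIF, and primed cells in FAX medium, which holds N2B27, FGF-2, Activin A and the tankyrase inhibitor XAV-939. Each of the 4 groups (naive and primed, labelled knockout, KO, or wild type, WT) had 2 libraries, and the labels do not say whether these were separate cultures; p-values may thus rest on technical spread alone. The comparisons ask how loss of INO80 changed the transcriptome in each state.

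The deposited RPKM values summed to between 341480 and 507598 per library, and read counts were not used here, so the depth behind a value is unknown. Ino80 itself was at 9.12 and 8.74 RPKM in the primed knockout libraries against 15.9 and 20.3 RPKM in primed wild type. In the naive state it was at 15.9 and 15.1 RPKM against 17.0045 and 14.5 RPKM, so its level did not separate the naive groups. Which exons are deleted was not given, and a gene's total also counts exons that stay. The libraries labelled naive knockout are called so below on their labels alone. In primed cells 59.3% of all tested genes were lower in the knockout, and the median change over all tested genes was -0.53 in log2(RPKM + 1), against 0.05 in naive cells. Changes in primed cells are therefore also given relative to that median. Calls are also given under 3 other scalings of the libraries (median centring, quantile normalization and loess within each state). The primed change of Ino80 was -0.93 ± 0.18 (SE) as deposited and -0.40 relative to that median. Under the 3 other scalings, in that order, it was -0.24, -0.26 and -0.28. Primed knockout libraries also held less of the summed marker genes of fibroblasts, mesenchyme and neural cells. The 11 fibroblast and mesenchyme markers summed to 32.4 to 37.2 RPKM in primed knockout and 64.8 to 88.2 RPKM in primed wild type. Of these, 8 of 8 tested were lower as deposited and 3 under all scalings (59.3% and 22.9% of all tested genes). The 6 neural markers summed to 29.8 to 31.4 RPKM against 75.4 to 94.9 RPKM in primed cells. In naive cells they summed to 78.3 to 81.7 RPKM against 40.8 to 45.9 RPKM. Tubb3 took most of each sum, and 4 of the 6 were lower in primed knockout under all scalings. Trophoblast and primitive endoderm markers were low in every library (at most 4.47 and 6.25 RPKM summed over 8 and 9 genes), and no gene is listed at exactly 0. Of 10 pluripotency and state markers 6 were lower and 3 higher in primed knockout cells. Among them Pou5f1 changed by 0.18 ± 0.072, Nanog by -1.63 ± 0.082 and Esrrb by -1.51 ± 0.16. Markers of the primed state did not move together. Fgf5 changed by 1.65 ± 0.28. Pou3f1 was at 9.28 and 7.40 RPKM in primed knockout against 14.1 and 19.8 RPKM in primed wild type. Otx2 was at 13.8 and 14.1 RPKM against 14.7 and 19.5 RPKM. The part of these marker levels in the changes of imprinted genes was not tested, and in bulk RNA fewer cells of a type and less RNA per cell cannot be told apart.

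Promoter windows from RefSeq (build GRCm38.p6, not the build of the deposited values) were found for 33 of the 40 genes, 52 windows in all, each reaching from 250 bases before to 50 bases after a transcript start. The hexamer that ZFP57 binds when methylated, TGCCGC or GCGGCA on the other strand, occurred in a window of 12 of the 33 genes (36.4%), against 13.05% of the 27025 genes in the table. Listed genes have more windows each; by window, 25% of 52 held it against 11.61% of 32851. These windows were also richer in CpG, with a median of 14.5 CpG against 7 in all windows. The hexamer was present for 5 of 13 maternally and 7 of 19 paternally expressed genes. Below are 5 of the windows, for genes whose values are described at length: both of Grb10, the first of 2 of Meg3, the first of 2 of Zdbf2 and that of Peg3. They run 5′ to 3′ on the gene's strand, and capitals mark the hexamer.
Grb10 (chr11:12037371-12037670, minus strand): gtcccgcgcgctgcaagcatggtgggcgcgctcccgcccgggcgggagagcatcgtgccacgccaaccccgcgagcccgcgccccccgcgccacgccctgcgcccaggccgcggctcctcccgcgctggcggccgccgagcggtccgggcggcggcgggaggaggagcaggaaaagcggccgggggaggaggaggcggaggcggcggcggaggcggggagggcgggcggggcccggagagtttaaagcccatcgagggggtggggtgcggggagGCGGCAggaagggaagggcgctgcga
Grb10 (chr11:12027922-12028221, minus strand): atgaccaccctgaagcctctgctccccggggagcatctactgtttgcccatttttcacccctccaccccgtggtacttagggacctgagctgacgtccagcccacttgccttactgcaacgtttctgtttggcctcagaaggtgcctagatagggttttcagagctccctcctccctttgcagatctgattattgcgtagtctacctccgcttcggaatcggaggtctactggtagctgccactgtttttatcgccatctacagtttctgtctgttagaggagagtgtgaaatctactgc
Meg3 (chr12:109540746-109541045, plus strand): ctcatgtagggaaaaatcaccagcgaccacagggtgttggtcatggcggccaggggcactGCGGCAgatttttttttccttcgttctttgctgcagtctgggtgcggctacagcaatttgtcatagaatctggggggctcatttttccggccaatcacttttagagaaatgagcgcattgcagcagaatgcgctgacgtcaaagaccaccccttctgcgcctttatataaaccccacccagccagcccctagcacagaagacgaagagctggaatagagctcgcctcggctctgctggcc
Zdbf2 (chr1:63200108-63200407, plus strand): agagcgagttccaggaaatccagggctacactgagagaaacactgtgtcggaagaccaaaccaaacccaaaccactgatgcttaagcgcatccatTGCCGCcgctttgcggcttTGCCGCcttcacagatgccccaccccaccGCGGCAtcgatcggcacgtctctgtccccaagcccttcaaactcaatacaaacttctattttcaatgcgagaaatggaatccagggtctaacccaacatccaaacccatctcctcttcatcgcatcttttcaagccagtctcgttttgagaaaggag
Peg3 (chr7:6730370-6730669, minus strand): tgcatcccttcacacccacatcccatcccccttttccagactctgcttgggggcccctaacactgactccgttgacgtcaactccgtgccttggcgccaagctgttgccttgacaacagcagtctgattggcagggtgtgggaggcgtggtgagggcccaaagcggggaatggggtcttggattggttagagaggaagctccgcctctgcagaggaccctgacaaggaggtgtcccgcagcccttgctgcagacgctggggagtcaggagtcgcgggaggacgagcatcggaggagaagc
The Zdbf2 window held 3 copies, and the first Grb10 and Meg3 windows held 1 each. The second windows of Grb10, Meg3 and Zdbf2 held none. The Peg3 window, which overlaps that of the oppositely transcribed Usp29, held none. A match describes the letters of a window and is not evidence of binding. Neither the methylation nor the binding of any factor was measured in these libraries.

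In naive cells the knockout libraries had more RNA from some imprinted genes and less from others. A gene was called where the adjusted p from limma was under 0.05. Calls are on the deposited values unless another fit is named. On the deposited values 6 of the 31 tested genes were higher (H19, Cd81, Peg10, Zdbf2, Mest and Impact; 6.08% of all tested genes were higher) and 5 were lower (Slc38a4, Sfmbt2, Rian, Mirg and Grb10; 5.85% of all were lower). The other 20 were not called. Under all 3 other scalings as well, 4 higher calls (H19, Cd81, Peg10 and Zdbf2; 4.66% of all tested genes) and the same 5 lower calls (4.82% of all) were made. The values of knockout and wild-type libraries did not overlap for 22 of the 31 genes, against 52.2% of all tested genes. The median change of the 31 was 0.03, beside 0.05 over all tested genes. Over all tested genes the naive wild-type libraries differed by a median of -0.30 in log2(RPKM + 1), second minus first. The naive knockout libraries differed by -0.04. The naive changes of Impact (0.27), Mest (0.37), Peg10 (0.40) and Zdbf2 (0.42) are close in size to that wild-type gap. The calls of H19, Cd81, Rian and Slc38a4 were made again whichever library was left out. The other 7 were each lost without either naive knockout library, where the library left in that group is taken to vary as the others do. Their highest adjusted p over such fits was 0.249 for Mirg, 0.378 for Grb10, 0.381 for Zdbf2, 0.427 for Impact, 0.247 for Peg10, 0.187 for Mest and 0.199 for Sfmbt2. Mirg, Mest, Grb10 and Impact were also not called without the first naive wild-type library, nor Peg10, Grb10 and Zdbf2 without the second, where the change of Zdbf2 was 0.27 instead of 0.42. Grb10, Mirg, Impact and Zdbf2 also lost their naive call without the second primed knockout library, and the last 3 of these without the first.

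In primed cells most tested imprinted genes were lower in the knockout libraries, as were most tested genes. On the deposited values 19 of 31 were lower (59.3% of all tested genes were), 4 were higher (Magel2, Peg10, Cd81 and Zdbf2; 4.16% of all tested genes), and 8 were not called. The median change of the 31 was -0.63, beside -0.53 over all tested genes, and 15 of the 31 lay above the median of all genes. Under all scalings 10 genes were lower (Grb10, Phlda2, H19, Peg3, Sfmbt2, Copg2, Mirg, Mkrn3, Meg3 and Igf2; 22.9% of all tested genes) and the same 4 were higher (4.14%). Knockout and wild-type values did not overlap for 25 of the 31 genes, against 83.2% of all tested genes. Leaving out 1 library ended the call of Cdkn1c (without either naive knockout, either primed knockout or the second primed wild-type library, where its change was -0.42), of Zrsr1 (without either primed knockout or the second primed wild-type library), of Slc38a4 (without the second primed knockout library) and of Plagl1 (without the second primed wild-type library, where its change was -0.26). Their highest adjusted p in these fits was 0.287, 0.101, 0.0608 and 0.0757. The other 19 primed calls were made in every such fit. Over all tested genes the primed wild-type libraries differed by a median of 0.32 in log2(RPKM + 1), second minus first, and the primed knockout libraries by -0.07.

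**Figure D1:**
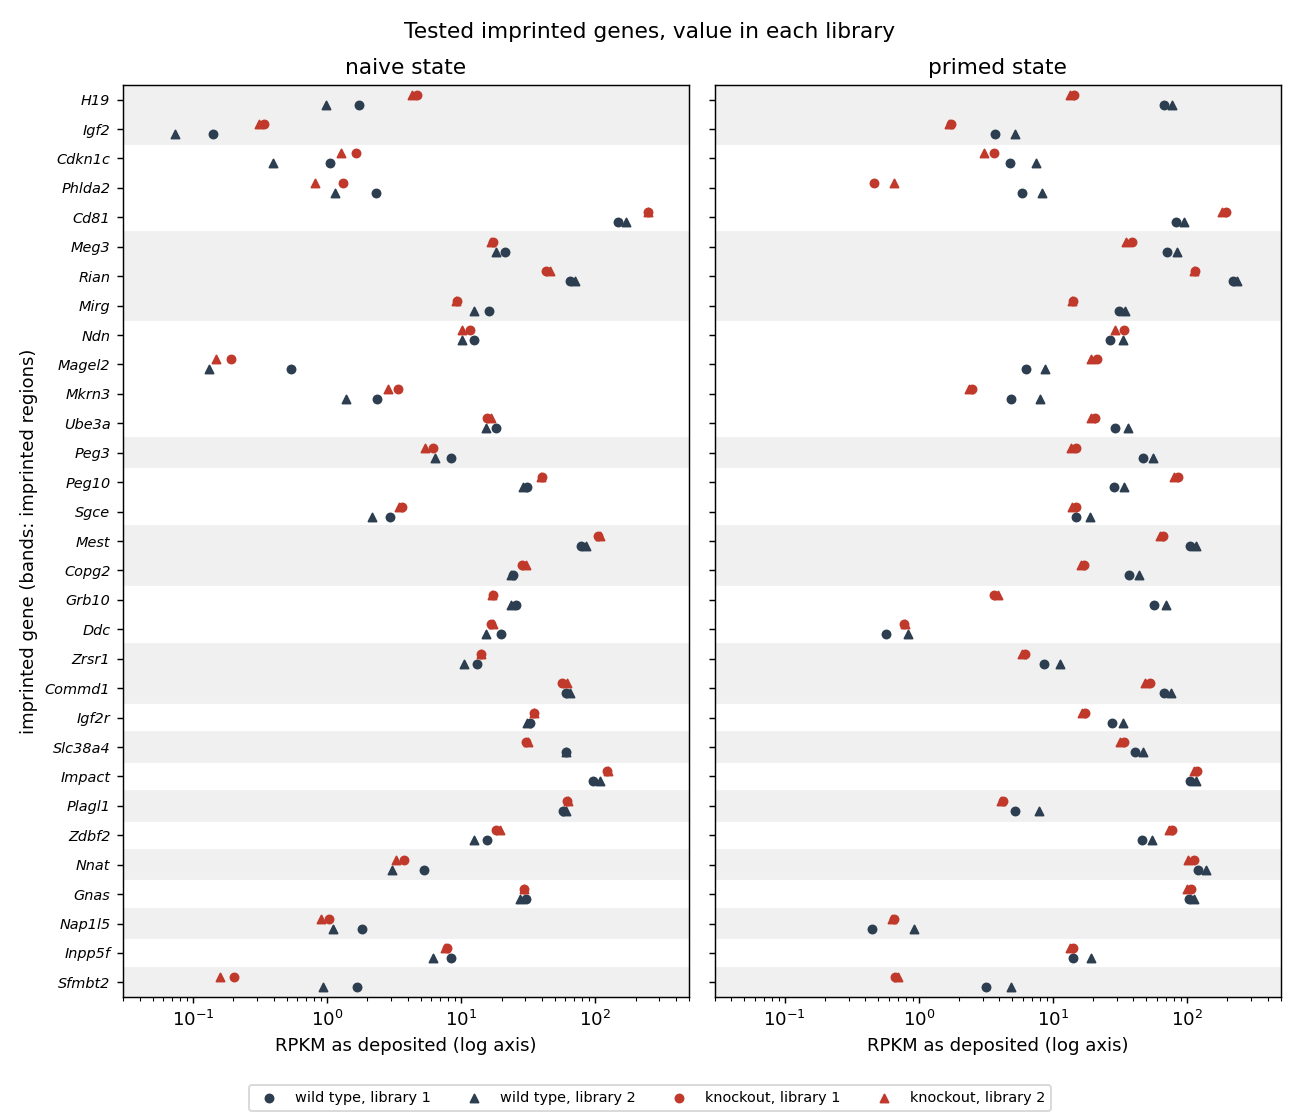
RPKM of the 31 tested imprinted genes in each library (log axis), naive left and primed right, with knockout in red and wild type in dark blue, circles for library 1 and triangles for library 2, and grey bands that separate imprinted regions. In the primed panel Grb10 lies at 3.67 and 3.93 RPKM in the knockout libraries and at 56.5 and 69.7 RPKM in wild type, while Cd81, Peg10, Magel2 and Zdbf2 lie higher in the knockout libraries.

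Grb10, an adaptor that dampens signalling from the insulin and IGF1 receptors, showed the largest change of the 31 in primed cells. It stood at 3.67 and 3.93 RPKM in primed knockout against 56.5 and 69.7 RPKM in primed wild type. The wild-type mean was 16.6 times the knockout mean, and the change was -3.73 ± 0.16 (SE) in log2(RPKM + 1), or -3.20 relative to all genes. In naive cells it was at 17.2 and 17.1 RPKM in knockout against 25.7 and 23.4 RPKM in wild type, a change of -0.49 ± 0.16 (adjusted p = 0.0262, limma). Ddc, the neighbouring gene of DOPA decarboxylase, is imprinted in few tissues. It was between 15.3 and 19.8 RPKM in every naive library and between 0.57 and 0.83 RPKM in every primed library. As deposited it was called in neither state. Under the 3 other scalings its primed change was called higher (0.77, 0.57 and 0.51). Its primed groups overlapped in RPKM, and log2(RPKM + 1) compresses changes at such low levels. Those calls thus rest on the scaling and do not show a rise of Ddc. The ratio of Grb10 to Ddc within a library was 4.76 and 4.94 in primed knockout and 98.5 and 84.2 in primed wild type.

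H19 and Igf2 share enhancers and an insulator bound by CTCF, and are normally expressed from opposite copies. H19, a noncoding RNA, was higher in naive knockout libraries (4.66 and 4.30 RPKM against 1.73 and 0.98 RPKM in wild type) and lower in primed knockout libraries (14.3 and 13.5 RPKM against 68.0 and 77.4 RPKM). Its change was 1.24 ± 0.22 in naive cells (adjusted p = 6.06e-07, limma) and -2.30 ± 0.22 in primed cells (adjusted p = 1.12e-24). Of the 31 genes H19 was the only one called in opposite directions under all scalings. Igf2, a growth factor, moved with H19 in primed cells: it was at 1.73 and 1.69 RPKM in knockout and 3.68 and 5.22 RPKM in wild type, a change of -0.99 ± 0.26. In naive cells it did not pass 0.34 RPKM in any library and was not called. Within primed libraries the ratio of H19 to Igf2 was 8.28 and 7.99 in knockout and 18.5 and 14.8 in wild type, and both genes were lower in the knockout. H19 is also the host of miR-675, whose hairpin did not pass the filter and whose mature form was not measured.

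In the Kcnq1 cluster the paternally expressed noncoding RNA Kcnq1ot1 silences its neighbours on the paternal copy. It stayed under 0.483 RPKM in every library and was not tested. Phlda2, which restrains the growth of the placenta, was at 0.47 and 0.65 RPKM in primed knockout and 5.93 and 8.37 RPKM in primed wild type. The wild-type mean was 12.8 times the knockout mean, and the change was -2.37 ± 0.28. In naive cells its groups overlapped (1.30 and 0.81 RPKM against 2.30 and 1.15 RPKM). Cdkn1c, an inhibitor of cyclin-dependent kinases, was at 3.65 and 3.05 RPKM in primed knockout and 4.802 and 7.49 RPKM in wild type, with a change of -0.69 ± 0.28 that was near that of all genes. Cd81, a tetraspanin of the cell surface with imprinting limited to the placenta, went the other way. It was higher in the knockout of both states, at 247 and 249 RPKM against 148 and 169 RPKM in naive cells and at 195 and 184 RPKM against 83.6 and 95.8 RPKM in primed cells. The other listed genes of the cluster, Slc22a18, Kcnq1 and Ascl2, had highest values of 0.431, 0.0611 and 0.877 RPKM.

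The Dlk1-Meg3 cluster produces the maternally expressed noncoding RNAs Meg3, Rian and Mirg from 1 strand, and the coding genes Dlk1 and Rtl1 from the paternal copy. Rian, which carries snoRNAs, was lower in the knockout libraries of both states, at 42.7 and 46.0 RPKM against 64.6 and 70.1 RPKM in naive cells and at 116 and 113 RPKM against 223 and 236 RPKM in primed cells. Mirg, which carries microRNAs, was at 9.24 and 9.12 RPKM against 16.2 and 12.5 RPKM in naive cells and at 14.1 and 13.9 RPKM against 31.2 and 34.4 RPKM in primed cells. Meg3 was not called in naive cells (17.2 and 16.6 RPKM against 21.3 and 18.2 RPKM). In primed cells it was lower, at 39.0 and 35.2 RPKM against 71.6 and 83.8 RPKM. The primed changes of the 3 RNAs lay close together, at -1.05 ± 0.13 for Meg3, -1.0002 ± 0.094 for Rian and -1.17 ± 0.18 for Mirg, or -0.51, -0.47 and -0.64 relative to all genes. The ratio of Meg3 to Rian ranged from 0.312 to 0.356 over the 4 primed libraries without separating knockout from wild type. The primed call of Rian was not made under every scaling. Dlk1 and Rtl1 had highest values of 1.28 and 0.569 RPKM and were not tested.

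Of the 10 microRNA hairpins whose coordinates lie in Mirg, 9 had a tested row. All 9 were lower in primed knockout as deposited, beside 59.3% of all tested genes. In the same cluster 2 of 3 tested hairpin rows within the coordinates of Rian and 0 of 3 within those of Rtl1 were lower. Hairpins were placed by coordinates without regard to strand. The tested ones within Rtl1 lie on the plus strand, as do Meg3, Rian and Mirg, so they are not read as products of Rtl1. The rows in Mirg may count reads of the Mirg transcript itself, so they are not independent of it, and mature microRNAs were not measured. The largest primed changes among them were -1.71 for Mir541, -1.60 for Mir3072 and -1.50 for Mir409, each called under all scalings. Their mature sequences, with Mir453 and Mir496a, which share a seed, are given with bases 2 to 8, the seed that pairs with targets, in capitals (RefSeq, GRCm38.p6, chromosome 12, plus strand).
mmu-miR-541-5p: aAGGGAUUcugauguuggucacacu
mmu-miR-409-3p: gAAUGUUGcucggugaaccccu
mmu-miR-3072-5p: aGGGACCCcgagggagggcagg
mmu-miR-453: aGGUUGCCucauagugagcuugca
mmu-miR-496a-5p: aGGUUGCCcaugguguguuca
The last 2 sequences share the seed GGUUGCC, and the first 3 have seeds of their own.

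In the Snrpn-Ube3a cluster, the region deleted or silenced in Prader-Willi and Angelman syndromes, neighbouring genes of the same paternal copy differed in direction in primed cells. Magel2, a MAGE family regulator of ubiquitin ligases, was at 21.5 and 19.2 RPKM in primed knockout against 6.32 and 8.67 RPKM in primed wild type, a change of 1.34 ± 0.28 (adjusted p = 8.39e-06, limma). Mkrn3, a ring finger protein, was at 2.48 and 2.38 RPKM against 4.90 and 7.96 RPKM, a change of -1.08 ± 0.28. Ndn, a MAGE family gene on the other side of Magel2, was at 34.2 and 29.0 RPKM against 26.5 and 33.3 RPKM, and its groups overlapped. It was not called in primed cells as deposited, but was called higher under the 3 other scalings (0.78, 0.60 and 0.55). Within primed libraries the ratio of Magel2 to Ndn was 0.630 and 0.662 in knockout and 0.238 and 0.261 in wild type, and that of Mkrn3 to Ndn was 0.0726 and 0.0820 against 0.185 and 0.239. In naive cells none of the 3 was called. Magel2 was under 0.55 RPKM there in every library. Ube3a, a ubiquitin ligase that is imprinted in neurons, was at 20.6 and 19.4 RPKM in primed knockout against 29.3 and 36.7 RPKM, a change of -0.69 ± 0.16 that was -0.15 relative to all genes. Snhg14, the long noncoding host of the region's snoRNAs, was at 147 and 136 RPKM in primed knockout against 110 and 122 RPKM in wild type (0.29 ± 0.11, adjusted p = 0.0183, limma), a call lost without either primed knockout library (adjusted p up to 0.227). Snrpn was under 0.490 RPKM in every library. It shares a transcript with Snurf, the sources used here do not say how overlapping genes were counted, and so its value was not read as its expression.

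Peg3 is a paternally expressed zinc finger protein. It was at 14.8 and 13.7 RPKM in primed knockout against 47.5 and 56.3 RPKM in wild type, 3.64 times the knockout mean. In naive cells it was at 6.21 and 5.38 RPKM against 8.39 and 6.37 RPKM and was not called. Its cluster neighbours Usp29 and Zim1 did not pass 1.14 and 1.21 RPKM in any library and were not tested.

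Peg10 and Sgce are transcribed in opposite directions from 1 shared promoter region on the paternal copy, and their RNAs parted in primed knockout cells. Peg10, a gene derived from a retrotransposon and needed for the placenta, was at 85.4 and 79.6 RPKM in primed knockout against 28.7 and 34.0 RPKM in wild type, a change of 1.37 ± 0.12. Sgce, which encodes epsilon-sarcoglycan, was at 14.8 and 14.0 RPKM against 14.87 and 18.95 RPKM and was not called. Their ratio within a library was 5.78 and 5.69 in primed knockout and 1.93 and 1.79 in primed wild type. In naive cells the ratios of knockout (11.1 and 11.6) lay between those of wild type (10.5 and 13.4). Peg10 was at 40.05 and 39.69 RPKM in naive knockout against 30.9 and 29.0 RPKM (0.40 ± 0.12, adjusted p = 0.00861, limma).

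Mest and Copg2 are transcribed towards each other, and the values of knockout and wild type did not overlap for either gene in either state. Mest, of the alpha/beta hydrolase fold family, was at 104 and 109 RPKM against 78.8 and 85.9 RPKM in naive cells and at 66.1 and 62.8 RPKM against 105 and 117 RPKM in primed cells. It was called in opposite directions as deposited, but neither call was made under every scaling. Copg2, a subunit of the vesicle coat, was at 17.2 and 16.3 RPKM in primed knockout against 36.9 and 43.7 RPKM in wild type. That was a change of -1.22 ± 0.14, called under all scalings. Its naive values, 28.6 and 30.4 RPKM against 24.3 and 23.5 RPKM, gave no call. Whether reads were counted by strand was not given, so reads of transcripts that overlap here cannot be assigned with certainty.

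Zrsr1, a splicing factor retrogene, lies in an intron of Commd1. Zrsr1 was at 6.21 and 5.88 RPKM in primed knockout against 8.64 and 11.4 RPKM in wild type, and Commd1 at 53.0 and 48.9 RPKM against 67.7 and 76.7 RPKM. Both changes, -0.63 ± 0.22 and -0.49 ± 0.11, were near the median of all genes, and neither call was made under every scaling. Neither gene was called in naive cells.

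Slc38a4 and Sfmbt2 are known from mouse embryos for imprints that rest on H3K27me3 from the egg and last in extraembryonic tissue, and both were lower in naive knockout libraries. Slc38a4, an amino acid transporter, was at 30.7 and 31.5 RPKM in naive knockout against 60.2 RPKM in both wild-type libraries, a change of -0.93 ± 0.12 (adjusted p = 1.21e-12, limma). In primed cells it was at 34.0 and 31.5 RPKM against 40.7 and 47.3 RPKM, and its change of -0.41 ± 0.12 was 0.12 above that of all genes. Sfmbt2, a relative of the Polycomb group proteins, was at 0.20 and 0.16 RPKM in naive knockout against 1.66 and 0.94 RPKM. In primed cells it was at 0.66 and 0.70 RPKM against 3.17 and 4.89 RPKM. The wild-type mean was 7.20 times the knockout mean in naive and 5.90 times in primed cells. The difference of the Sfmbt2 change between states did not pass the threshold (-0.61 ± 0.37, adjusted p = 0.151, limma).

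Among the genes that stand alone, Zdbf2, a zinc finger gene controlled by a paternal transcript from far upstream, was higher in the knockout of both states. It was at 18.3 and 19.5 RPKM against 15.5 and 12.4 RPKM in naive cells and at 77.8 and 73.1 RPKM against 46.2 and 54.7 RPKM in primed cells (0.42 ± 0.13 and 0.58 ± 0.13). Igf2r, the maternally expressed receptor that takes up and removes IGF2, was at 17.4 and 16.5 RPKM in primed knockout against 27.9 and 33.3 RPKM, a change of -0.81 ± 0.14 that was -0.28 relative to all genes and not called under every scaling. Plagl1, a zinc finger regulator of other imprinted genes, was between 57.9 and 62.8 RPKM in every naive library. In primed cells it was at 4.28 and 4.09 RPKM in knockout and 5.22 and 7.90 RPKM in wild type, which was 0.01 above the change of all genes. Impact, which damps the amino acid stress kinase GCN2, was called only in naive cells (122 and 126 RPKM against 96.6 and 109 RPKM; 0.27 ± 0.090, adjusted p = 0.028, limma), and not under every scaling. Nnat, Gnas, Nap1l5 and Inpp5f were called in neither state as deposited. Gnas, the gene of the stimulatory G protein alpha subunit, was between 27.4 and 30.2 RPKM in naive and between 101 and 114 RPKM in primed libraries.

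**Figure D2:**
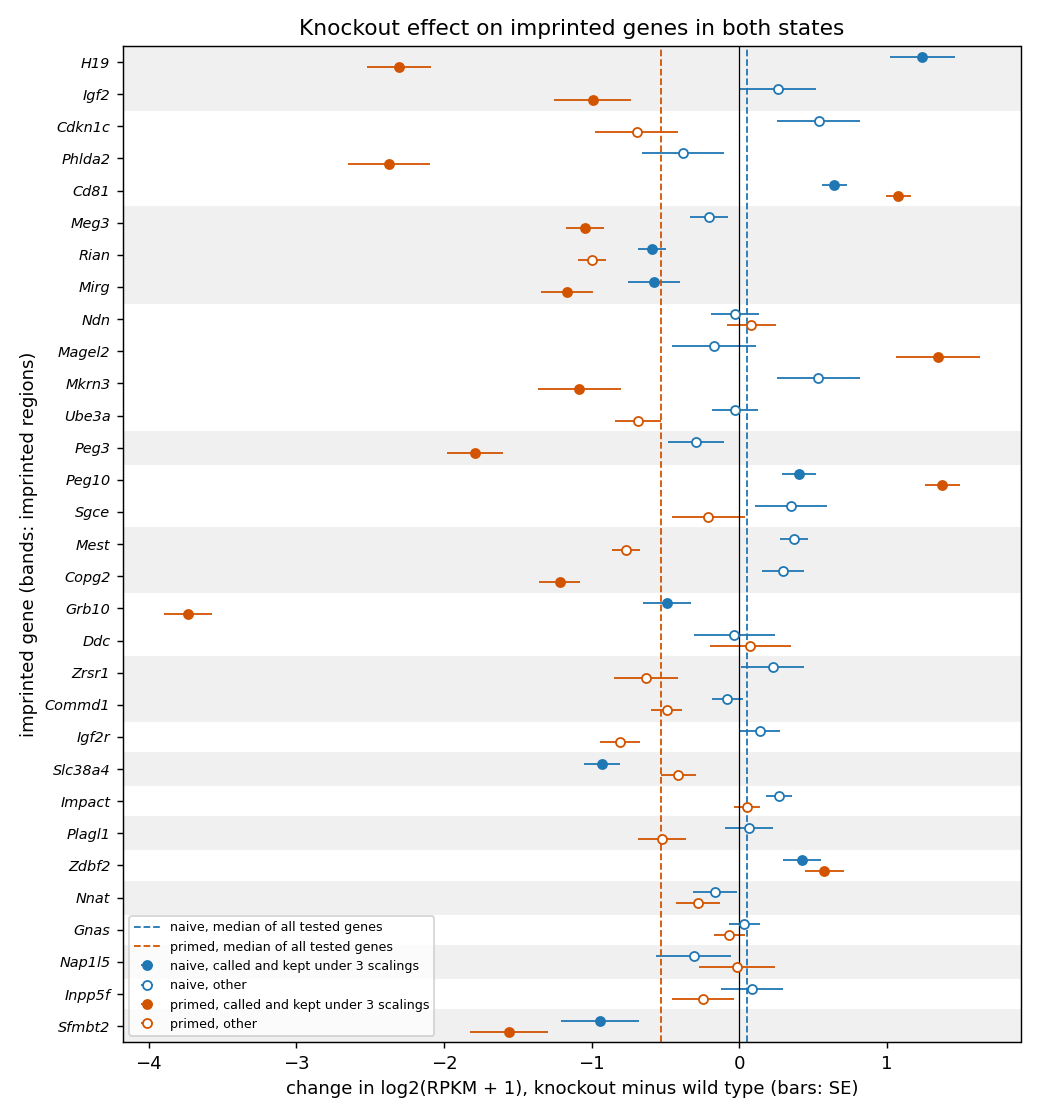
Change in log2(RPKM + 1), knockout minus wild type, with its SE, for the 31 tested imprinted genes in naive (blue) and primed (orange) cells; filled points are called under all scalings, dashed lines are the medians of all tested genes (0.05 and -0.53), and grey bands separate imprinted regions. Grb10 lies at -3.73 in primed cells, H19 lies on opposite sides of 0 in the 2 states, and Cd81, Peg10, Magel2 and Zdbf2 lie above 0 in primed cells.

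The effect of the knockout itself was compared between the states in the same limma fit. As deposited it was lower in primed than in naive cells for 17 of the 31 genes (47.4% of all tested genes) and higher for 4 (2.16% of all), namely Magel2, Peg10, Slc38a4 and Cd81. Under all scalings it was lower for 8 genes (H19, Grb10, Phlda2, Mkrn3, Copg2, Peg3, Igf2 and Cdkn1c; 16.6% of all tested genes) and higher for the same 4 (2.14%). The median difference of the 31 was -0.59, and that of all tested genes was -0.59 as well. As deposited 3 genes were higher in the knockout of both states (Cd81, Peg10 and Zdbf2), 5 were lower in both (Grb10, Mirg, Rian, Sfmbt2 and Slc38a4), 2 were higher in naive and lower in primed cells (H19 and Mest), and none was lower in naive and higher in primed cells.

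By expressed copy, the maternally expressed genes were lower in primed knockout cells more widely than the paternally expressed ones in count, although no test of the groups was made. As deposited 11 of 12 maternally expressed genes were lower and 1, Cd81, was higher, with a median change of -1.02; 59.3% of all tested genes were lower and 4.16% higher. Of 18 paternally expressed genes 8 were lower (44.4%, below the share of all genes) and 3 higher (Magel2, Peg10 and Zdbf2), with a median of -0.26, beside -0.53 over all tested genes. Of the maternally expressed genes 2 of 12 lay above the median of all genes, and of the paternally expressed genes 12 of 18. The latter include Ddc and Nap1l5, under 1 RPKM in every primed library, where log2(RPKM + 1) limits how far a gene can fall. Under all scalings 6 of 12 maternally and 4 of 18 paternally expressed genes (22.2%) were lower, beside 22.9% of all tested genes. Among genes classed as not limited to a tissue or transcript, 8 of 8 maternally expressed genes were lower as deposited (median -1.11). So were 8 of 16 paternally expressed genes (median -0.35). The 16 include Slc38a4 and Sfmbt2, both lower, although their imprints are known to last in extraembryonic tissue. In naive cells 2 maternally expressed genes were higher and 3 lower of 12 (median -0.06), and 4 paternally expressed genes were higher and 2 lower of 18 (median 0.07), beside 6.08% higher, 5.85% lower and a median of 0.05 over all tested genes. Meg3, Rian and Mirg come from 1 cluster and are not independent points. The hexamer was in a window of 4 of 9 genes that were lower in primed cells under all scalings, of 1 of 3 that were higher and of 5 of 14 that were neither.

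**Figure D3:**
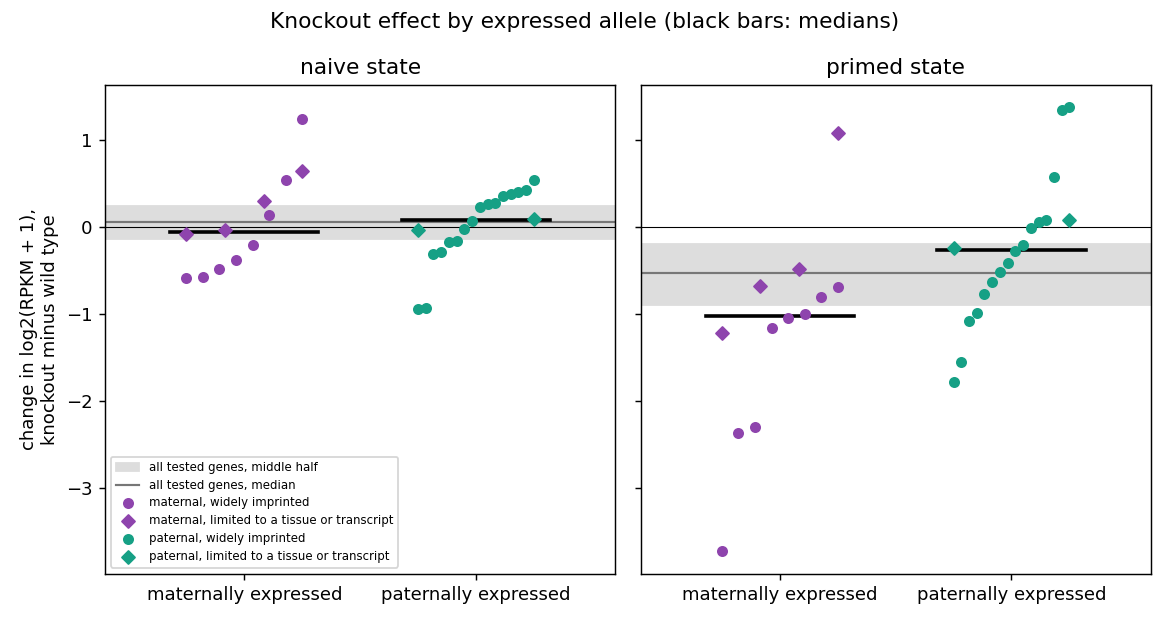
Change in log2(RPKM + 1), knockout minus wild type, of the 12 maternally (purple) and 18 paternally expressed (green) tested genes in each state; diamonds are genes with imprinting limited to a tissue or transcript, black bars are group medians, and the grey line and band are the median and middle quartiles of all tested genes; Gnas is left out. In primed cells the medians are -1.02 and -0.26, and the maternally expressed point above 0 is Cd81. Slc38a4 and Sfmbt2 are not drawn as diamonds, although their imprints are known to last in extraembryonic tissue.

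The wild-type levels of the same genes stood in a different order in the 2 states. Ties between genes recur in every library of a state but not always in the other state, so the states may have been scaled apart, and levels are given as mean percentile ranks among all rows of a library, with no test. H19 was at percentile 53.4 in naive and 95.1 in primed wild type, Nnat at 62.6 and 97.95, Igf2 at 31.8 and 59.7, and Peg3 at 68.9 and 92.2. Ddc was at 80.6 in naive and 45.0 in primed wild type, and Plagl1 at 94.4 and 63.3. Impact (97.3 and 97.4), Commd1 (94.8 and 95.02) and Mest (96.3 and 97.4) had nearly the same rank in both. In naive wild type the highest mean levels were those of Cd81 (158.7 RPKM), Impact (103 RPKM) and Mest (82.4 RPKM), and in primed wild type those of Rian (229 RPKM), Nnat (130.9 RPKM) and Impact (111.5 RPKM). The primed means of Impact, Mest (110.8 RPKM) and Gnas (109.2 RPKM) differed by less than the gap between their libraries.

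The 19 genes known to set, keep or erase methylation at imprinted regions, or to bind them, were also measured, and all 19 were tested. In naive knockout cells 3 were higher as deposited, Zfp57, Dnmt3l and Tet1, and 1 was lower, Uhrf1; Dnmt3l and Tet1 were called under all scalings. Dnmt3l, the cofactor of the de novo methyltransferases, was at 49.0 and 48.2 RPKM against 28.8 and 25.9 RPKM. The methylcytosine oxidase gene Tet1 was at 47.8 and 49.2 RPKM against 32.6 and 31.0 RPKM. The naive calls of Zfp57, Tet1 and Dnmt3l were lost without either naive knockout library (adjusted p up to 0.0862, 0.174 and 0.413, limma), and that of Dnmt3l also without the second naive wild-type or either primed knockout library. In primed knockout cells 11 of 19 were lower as deposited, near the 59.3% of all genes, and none was higher. Of the 19, 15 lay above the median change of all genes. These 15 include Dnmt3l and Dppa3, which did not pass 0.155 and 0.112 RPKM in any primed library. So low a gene can hardly fall on log2(RPKM + 1), so their place above the median was set by their level. Their primed wild-type means were 5.67 and 2.63 times the knockout means. Under all scalings 3 of the 19 were lower. These were Tet2, also a methylcytosine oxidase (0.45 and 0.45 RPKM against 3.41 and 4.85 RPKM; -1.81 ± 0.23), Zfp57 (14.8 and 13.2 RPKM against 42.5 and 53.6 RPKM; -1.70 ± 0.10) and Arid4a, a chromatin protein linked to the Prader-Willi imprint in mice (4.13 and 4.11 RPKM against 7.55 and 10.5 RPKM; -0.95 ± 0.24). In naive cells Zfp57 stood instead at 195 and 200 RPKM in knockout against 134 and 153 RPKM in wild type. The difference of its effect between states was -2.16 ± 0.14. Trim28, its partner, and Dnmt1, the maintenance methyltransferase, were called in neither state as deposited. Under each of the 3 other scalings both were higher in primed knockout (Trim28 0.77, 0.38 and 0.28, Dnmt1 0.74, 0.41 and 0.34). Setdb1, Dnmt3b, Smchd1 and Kdm1b, also not called in primed cells as deposited, were higher under all 3 as well. So were Dnmt3a, Tet1 and Yy1, which were lower as deposited.

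**Figure D4:**
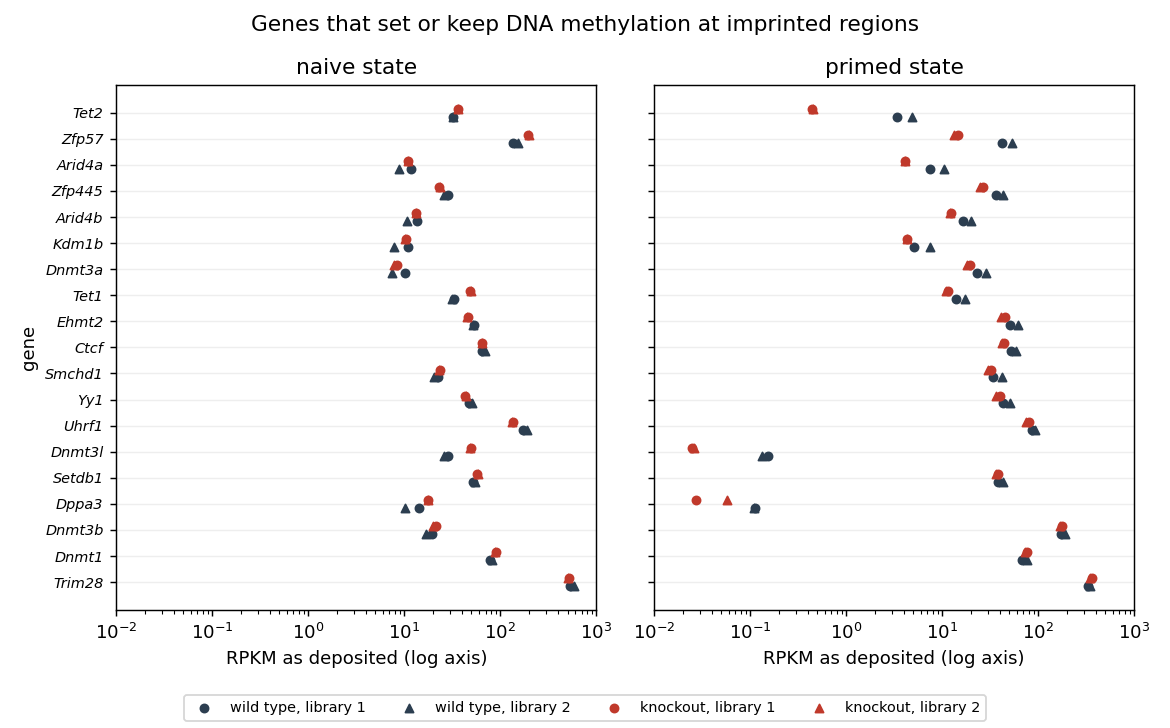
RPKM (log axis) of 19 genes that act on methylation at imprinted regions, in each library of the naive (left) and primed (right) state, with knockout in red and wild type in dark blue, circles for library 1 and triangles for library 2. Zfp57 lies at 195 and 200 RPKM in naive knockout, above wild type, and at 14.8 and 13.2 RPKM in primed knockout, below wild type.

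Other genes of the same regions were set beside the listed ones. Imprinted genes that are not on the list, such as Snhg14, were not left out, so the shares below are not those of non-imprinted genes. Of the 73 tested genes that flank the clusters and lone genes, 49 were lower in primed knockout cells as deposited (67.1%) and 2 higher, with a median change of -0.72, and 28 were lower under all scalings. Over all tested genes 59.3% were lower, 4.16% higher and 22.9% lower under all scalings. In naive cells 8 of the 73 were higher and 7 lower (6.08% and 5.85% of all tested genes). Flanking genes with large primed changes were Tmem17, near Zrsr1 and Commd1 (-1.97 ± 0.28), and Pnldc1, near Igf2r (-1.74 ± 0.27). Others were Mrpl23, next to H19 (-1.73 ± 0.24), and Otud7a, beyond the Snrpn-Ube3a cluster (-1.72 ± 0.26). In naive cells Aurkc, near Peg3, changed by -1.51 ± 0.28 and Tti1, near Nnat, by -1.36 ± 0.21. Flanking genes that were higher under all scalings included Utrn, near Plagl1, in naive cells (0.83 ± 0.17) and Xpo1, near Commd1, in primed cells (0.40 ± 0.085). Of 41 tested rows inside the clusters, most of them small RNAs nested in Rian, Mirg and Snhg14, 24 were lower (58.5%) and 2 higher in primed knockout cells, near the shares of all tested genes.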

How the data were processed

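The deposited values are RPKM per gene, 1 table per library, and the authors had scaled them further by a method that the sources used here do not give: zeros are absent, and ties between genes recur in every library of a state. ERCC RNA was added per the labels' protocols, and the tables hold 0 ERCC rows. Per the submitters' processing notes the build was mm9, and the tools were affy, featureCounts 1.5.1, STAR 2.5.2b and cutadapt 1.9 (roles, settings and strand not given). Genes that reached 1 RPKM in 2 or more libraries were fitted as log2(RPKM + 1) with limma 3.58.1 (R 4.3.3), 4 group means and an intensity trend, and p-values were adjusted by Benjamini-Hochberg over all tested genes at 0.05. A fold on this scale understates the change of low genes. Prior degrees of freedom were infinite, so variances came from the trend alone and the p-values of large changes are very small. Median centring, quantile and loess normalization were alternatives; requiring a call under all of them was chosen after the data were seen. Members and lists were chosen with earlier results of these data known. Every member may be named; of other lists and flanking genes, called genes with the largest changes are named, and Snhg14 and the microRNAs of Mirg were chosen after their values were seen. The procedure was tested on simulated data. Figures used matplotlib 3.10.9.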

Additional observations from a re-analysis of the deposited data

Results flagged for a closer look

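The effect of the knockout differed between the states for 21 imprinted genes by limma's test of the difference, given here as log2(RPKM + 1), primed minus naive, beside a median of -0.59 over all tested genes. It was more negative in primed cells for H19 (-3.54), Grb10 (-3.24), Phlda2 (-1.99), Mkrn3 (-1.62), Copg2 (-1.51), Peg3 (-1.49), Igf2 (-1.25), Cdkn1c (-1.23), Mest (-1.14), Igf2r (-0.95), Zrsr1 (-0.86), Meg3 (-0.84), Ube3a (-0.65), Mirg (-0.59), Plagl1 (-0.59), Rian (-0.41) and Commd1 (-0.41). The last 4 differed from 0 by no more than all tested genes did at the median. The effect was more positive in primed cells for Magel2 (1.52), Peg10 (0.97), Slc38a4 (0.52) and Cd81 (0.43).

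Of these 21 calls 13 were made again whichever library was left out. Those of Cdkn1c, Rian, Mirg, Ube3a, Zrsr1, Commd1, Slc38a4 and Plagl1 were not. Without the first naive knockout library 7 of these 8 were lost (not Rian), without the second 7 (not Cdkn1c), and without the second primed knockout library 7 (not Slc38a4). The first primed knockout library ended the calls of Mirg, Zrsr1, Slc38a4 and Plagl1, the first naive wild-type library those of Commd1 and Plagl1, the second naive wild-type library those of Mirg, Ube3a, Zrsr1 and Plagl1, and the second primed wild-type library those of Cdkn1c and Plagl1, the latter then at -0.33.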

How the results depend on the processing

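With 2 libraries a group and an unstated scaling, direction depends on the scaling for genes near the median of all genes, which was -0.53 in primed cells as deposited and 0.16, 0.03 and 0.02 after median centring, quantile normalization and loess. The counts of called imprinted genes (naive higher and lower, primed higher and lower, difference higher and lower) were 6, 5, 4, 19, 4 and 17 as deposited, 7, 9, 12, 10, 11 and 8 after median centring, 13, 11, 13, 15, 11 and 12 after quantile normalization, and 13, 13, 13, 15, 12 and 11 after loess. Without a variance trend they were 2, 3, 4, 19, 2 and 13. With the replicate number as a block they were 2, 3, 4, 19, 3 and 12. Same-numbered libraries deviated together in naive (correlation 0.31) but not in primed cells (-0.036), so the numbers are not taken to pair them. Leaving out each library gave 2 to 7, 2 to 6, 4, 16 to 21, 3 to 4 and 10 to 19, and naive counts were lowest without either naive knockout library.

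Some changes reversed under other scalings, counted where the change was called in at least 1 of the fits compared. Under all 3 (median centring, quantile, loess), the primed changes of Sgce (0.48, 0.44, 0.40), Zrsr1 (0.061, 0.11, 0.11), Slc38a4 (0.28, 0.041, 0.0092), Plagl1 (0.17, 0.25, 0.26), Gnas (0.63, 0.18, 0.18), Nap1l5 (0.68, 0.49, 0.41) and Inpp5f (0.45, 0.41, 0.37) were positive, as were the differences of Mirg (0.16, 0.039, 0.045), Plagl1 (0.16, 0.19, 0.23), Gnas (0.65, 0.19, 0.20) and Inpp5f (0.42, 0.39, 0.37). The primed change of Cdkn1c was 0.096 after quantile normalization and after loess. Median centring reversed the primed changes of Ube3a (0.0089), Commd1 (0.20) and Nnat (0.41) and the differences of Rian (0.34), Ube3a (0.099), Commd1 (0.34) and Nnat (0.63), and the differences of Commd1 after quantile normalization (0.00195) and of Nnat after loess (0.19) reversed too. A further 34 recomputed values changed sign without a call in either fit, among them the differences of Sgce, Impact and Sfmbt2 under all 3 scalings, that of Nnat after quantile normalization, and values of Ndn, Magel2, Ube3a, Ddc, Impact, Nnat, Gnas, Nap1l5 and Inpp5f with a library left out. The cause was not tested. Other changes kept their sign, were not called as deposited and were called under all 3 scalings. Among them were the naive changes of Cdkn1c, Mkrn3 and Sgce (higher) and of Phlda2, Peg3 and Nap1l5 (lower). The primed changes of Ndn, Ddc and Impact and the differences of Ndn, Ddc, Zdbf2 and Nap1l5, all positive, were also among them. Ddc and Nap1l5 were under 1 RPKM in every primed library. A filter of 5 RPKM left some genes without a value, and fitting each state alone gives no difference; no called change reversed under these, another pseudocount, no filter, no trend, the block or a left-out library.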
